A study of Mus musculus with 10 samples.

Results

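The data describe 39 genes that type I interferon induces (interferon-stimulated genes), chosen by name as a gene module, in germinal center B cells of mice with and without the transcription factor ZBTB38. All 39 were found among the 22380 genes in the files, each under 1 gene identifier and with 111 transcripts between them. The libraries came from 10 mice of strain C57Bl6/N that were immunized with NP-OVA in Alhydrogel, and antigen-specific (NP+) GL7+IgD- B cells were sorted 2 weeks later. The ZBTB38 WT group (n = 2) was Zbtb38fl/fl without Cre, the ZBTB38 HET group (n = 2) was Zbtb38fl/+ x Vav-Cre, and the ZBTB38 KO group (n = 6) was Zbtb38fl/fl x Vav-Cre. Vav-Cre is active primarily in hematopoietic cells and not only in B cells, so the deletion in KO mice was not limited to B cells by design. Its extent in other cells was not measured here. WT mice carried no Cre, so between WT and KO the effects of Cre and of the deletion cannot be told apart, whereas HET and KO mice both carried it. The floxed allele descended from 1 founder, and the controls were littermates. Libraries are named here by genotype and replicate number, such as KO 4.

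Type I interferons are cytokines that act through the receptor chains IFNAR1 and IFNAR2 and the kinases JAK1 and TYK2. The kinases phosphorylate STAT proteins, among them STAT2, which joins IRF9 in a complex that binds the interferon-stimulated response element (ISRE) in the promoters of genes that detect viral RNA, block its translation or degrade it. B cells respond to interferon and keep a low level of many of these genes without infection, and the same genes are expressed strongly in macrophages and other myeloid cells.

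The response element is shown here because it is the sequence that links these genes. RefSeq promoters (GRCm38.p6, 250 bases before to 50 after each start) were found for 29 of the 39 genes. The response element was searched on both strands as GAAA, any 2 bases and GAAA again, and occurred in the promoters of 13 of the 29 genes (44.8%) and of 3.99% of all 27025 genes in the table. These 30-base windows, 1 for each of 7 genes (28 bases for Ifih1), run 5′ to 3′ along the gene's own strand, with the match in capitals (TTTC, 2 bases and TTTC where the motif lies on the opposite strand).
Isg15: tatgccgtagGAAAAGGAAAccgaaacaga
Ifit1: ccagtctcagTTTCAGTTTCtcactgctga
Oas3: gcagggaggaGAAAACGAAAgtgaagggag
Rsad2: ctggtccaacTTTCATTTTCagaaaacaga
Stat2: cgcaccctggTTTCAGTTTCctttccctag
Ifih1: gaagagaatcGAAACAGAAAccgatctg
Ifitm3: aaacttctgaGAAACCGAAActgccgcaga
The windows lie at chr4:156200877-156200906 on the minus strand for Isg15, chr19:34640794-34640823 on the plus strand for Ifit1, chr5:120777715-120777744 on the minus strand for Oas3, and chr12:26456553-26456582 on the minus strand for Rsad2. That of Stat2 is at chr10:128270266-128270295 on the plus strand, that of Ifih1 at chr2:62646206-62646233 on the minus strand, and that of Ifitm3 at chr7:141010706-141010735 on the minus strand. Isg15 held 3 overlapping matches within its promoter. The response element letters were not in the stretch searched for the other 16 genes matched, among them Ifit2, Irf7, Irf9, Oasl1 and Oasl2.

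Depth was between 26612431 and 41059082 estimated counts per library. Levels are compared between libraries as CPM (counts scaled to library size, with TMM normalization over all 10 libraries) and between genes as TPM, which also corrects for length. Zbtb38 was at 164 and 152 CPM in WT, 117 and 106 CPM in HET, and 18.5 to 50.1 CPM in KO. It was called lower in KO than in WT (log2 fold change 2.31 ± 0.274 SE, edgeR adjusted p = 0.0734), although that call was lost without either WT library, without KO 1, KO 3, KO 4 or KO 5, and with counts scaled by transcript length, where the value was 1.19. Against WT and HET together it was called lower in KO (2.08 ± 0.232 SE, edgeR adjusted p = 0.0104), also with any single library left out. That call too was lost with counts scaled by transcript length (1.04, edgeR adjusted p = 0.678) and with limma on log2(TPM + 1) (1.16, adjusted p = 0.686). DESeq2 called Zbtb38 lower in KO in both comparisons (DESeq2 adjusted p = 2.93e-09 against WT and 7.52e-14 against WT and HET). These values are for the whole gene, whereas only exon 3, which holds the coding sequence, was floxed. The paper reported that transcripts of that exon were fully lost in KO. Bcl6, the transcription factor that defines germinal center B cells, was present in every library at 168 to 293 CPM. It was lowest in KO 6 (168 CPM) and KO 4 (192 CPM), and at 235 CPM or more elsewhere. KO 1 and KO 6 stood apart: they held the highest value of 18.2% and 19.3% of all genes tested and the lowest value of 15.9% and 22.3%. In bulk samples, fewer cells of a type and less RNA per cell cannot be told apart.

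Most of the 39 genes were expressed at low or moderate levels. Ly6e, a lymphocyte surface antigen, was by far the highest at a mean of 2840 TPM over the 10 libraries (SD 291) and made up 73.1% of the summed TPM of the module. Sp100, a nuclear body protein, followed at 371 ± 45.2 TPM (SD, n = 10). Ifi35 (88.0 ± 11.3 TPM), Isg20, an exonuclease of single-stranded RNA (51.0 ± 6.54 TPM), and Irf7 (42.0 ± 10.9 TPM) came next, and Isg20 and Irf7 did not differ beyond their spread. In all, 19 genes lay between 10 and 100 TPM, 13 between 1 and 10 TPM, and 5 below 1 TPM, namely Ifi44, Oas2, Rsad2, Ifih1 and Ifit1. Oas2, Mx2, Rsad2 and Ifi44 had no count in at least 1 library, where a count of 0 allows up to 3 counts.

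The main comparison of the study was ZBTB38 WT against KO. None of the 39 genes passed an adjusted p of 0.1 (edgeR quasi-likelihood test, Benjamini-Hochberg over 14203 genes), where 0.00704% of all genes did. DESeq2 and limma on log2(TPM + 1) also called 0 of the 39, where they called 5 and 0 of all genes tested. With log2(TPM + 0.1), limma called 0 of the 39 and 3 of all genes. At an unadjusted p under 0.05, edgeR gave 1 of the 39, Ifit2, beside 2.19% of all genes tested. The gene was higher in WT, as were 1.19% of all genes at that level, and 0 of the 39 were lower, as were 1.0% of all genes. Fitted differences were higher in WT for 30 of the 39 genes, against 48.2% of all genes, and their median log2 fold change was 0.16, against -0.01 for all genes. The median standard error of the 39 genes was 0.414.

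When WT and HET were pooled as controls (n = 4), 38 of the 39 genes were tested, since Ifi44 fell below the filter on low counts. Again 0 passed an adjusted p of 0.1 by edgeR (0.00749% of all genes did), DESeq2 (18 of all genes did) or limma (0 of all genes did). By edgeR, 1 gene, Ifit2, had an unadjusted p under 0.05, beside 6.3% of all genes. It was higher in the controls (4.05% of all genes were), and 0 were lower (2.26% of all genes). The median log2 fold change was 0.08 (all genes -0.02), with 24 of 38 genes higher in the controls (47.2% of all genes). For 0 genes did all controls lie above all KO libraries (1.06% of all genes) or below them (0.502% of all genes). Both comparisons share the WT and KO libraries.

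The IFIT proteins bind foreign RNA and inhibit its translation. Ifit1, Ifit2 and Ifit3 lie next to each other on chromosome 19 (Ifit2 at chr19:34550694-34576419, plus strand, GRCm38). Ifit2 was at 8.13 and 8.24 CPM in WT, at 4.71 and 8.81 CPM in HET, and at 2.12 to 5.78 CPM in KO with a median of 3.72 CPM. Each WT library and HET 2 were above all KO libraries, whereas HET 1 lay within the KO range. The log2 fold change was 1.07 ± 0.419 (SE) for WT over KO (edgeR unadjusted p = 0.0273, adjusted p = 0.999) and 0.95 ± 0.335 for the controls over KO (edgeR unadjusted p = 0.0148, adjusted p = 0.744). Without WT 1 the unadjusted p of the first comparison was 0.0983, and without WT 2 it was 0.108. In the second it was at most 0.0458 whichever library was left out. Ifit1 was highest in KO 4 at 4.52 CPM and lowest in KO 6 at 0.179 CPM. Ifit3, of whose 31-base words 61.8% also occur in other genes, mainly Ifit3b, is an uncertain measurement and ranged from 1.82 CPM in KO 3 to 9.44 CPM in KO 6.

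The cytoplasmic RNA sensors are helicases that signal when they bind viral RNA. Ifih1 (MDA5) was at 5.10 and 4.15 CPM in WT, 0.509 and 1.05 CPM in HET, and 1.05 to 4.14 CPM in KO with a median of 1.58 CPM. Both WT libraries were thus above all KO libraries, though WT 2 was almost level with KO 4, and HET lay below all KO libraries, with HET 2 almost level with KO 1. The fold change of WT over KO was 1.06 ± 0.603 on the log2 scale and did not pass (edgeR unadjusted p = 0.108). Ddx58 (RIG-I) ranged from 12.6 CPM in HET 1 to 61.3 CPM in KO 6, and Dhx58, a regulator of the other sensors, from 21.7 CPM in KO 6 to 50.9 CPM in KO 2. KO 6 was therefore the highest library for Ddx58 and the lowest for Dhx58.

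Oligoadenylate synthetases make the second messenger that activates RNase L. Oas3 was at 6.60 and 5.19 CPM in WT, 3.92 and 2.27 CPM in HET, and 1.75 to 5.08 CPM in KO with a median of 4.14 CPM. In CPM the groups WT and KO did not overlap, though WT 2 was almost level with KO 6 (5.08 CPM). The log2 fold change was 0.64 ± 0.477 (edgeR unadjusted p = 0.208). Altogether 3 of the 39 genes, Ifih1, Ifit2 and Oas3, had every WT library above every KO library in CPM (4.17% of all genes did) and 0 had every WT library below (2.45% of all genes). In TPM, KO 4 was above WT 2 for Ifih1 (1.51 against 1.41 TPM) and for Oas3 (1.69 against 1.61 TPM). Oasl2 varied most among the KO mice: it was at 7.94 and 4.85 CPM in WT and 3.06 and 2.13 CPM in HET, and in KO it ran from 0.0718 CPM in KO 2 to 17.6 CPM in KO 6, with a median of 4.39 CPM. KO 1 and KO 2 held 5 and 2 counts of this gene, and KO 4 and KO 6 held 466 and 589. Oas2 showed the same kind of spread at a lower level, with 1.19 and 0.692 CPM in WT, 0 and 1.88 CPM in HET, and 0 to 5.75 CPM in KO (median 0.252 CPM), highest in KO 4. Oas1a, which shares 68.8% of its 31-base words with other genes, mainly Oas1g, is uncertain and was also highest in KO 4, at 18.4 CPM. Oasl1 ranged from 3.07 CPM in HET 2 to 15.3 CPM in KO 6.

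Mx proteins are dynamin-like GTPases, and both mouse genes are known to carry inactivating changes in common laboratory strains, so their RNA is described here without regard to protein. Mx2 was at 5.10 and 1.52 CPM in WT, 0 and 0.650 CPM in HET, and 0.144 to 10.3 CPM in KO with a median of 1.38 CPM. Its highest library was KO 6 and the groups overlapped. Mx1 ranged from 4.13 CPM in KO 1 to 19.2 CPM in KO 4. The genes shared 12.1% of the 31-base words of Mx2 and 7.64% of those of Mx1, which limits how well their reads can be told apart.

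The transcription factors of the pathway varied less. Irf7, which drives the second wave of interferon production, was at 60.1 and 51.8 CPM in WT, 58.3 and 50.9 CPM in HET, and 37.9 to 73.3 CPM in KO with a median of 45.9 CPM. Irf9, the DNA-binding subunit of the interferon-activated complex, was at 77.1 and 81.1 CPM in WT, 59.7 and 66.4 CPM in HET, and 47.6 to 86.8 CPM in KO with a median of 55.4 CPM. For both genes KO 4 and KO 6 were above the other KO libraries, which were all below WT. Stat2 was at 76.5 and 92.0 CPM in WT, 85.6 and 82.8 CPM in HET, and 46.6 to 103 CPM in KO with a median of 82.6 CPM. Log2 fold changes of WT over KO were 0.11 ± 0.259 for Irf7, 0.31 ± 0.245 for Irf9 and 0.11 ± 0.259 for Stat2, and none passed the test. The direction for Stat2 turned (-0.04) without WT 2. Sp100 hardly varied, at 437 and 439 CPM in WT, 420 and 431 CPM in HET, and 370 to 485 CPM in KO with a median of 454 CPM.

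Isg15 encodes a ubiquitin-like modifier and Usp18 the protease that removes it and restrains signaling at the receptor. Isg15 was at 5.46 and 2.87 CPM in WT, 4.93 and 4.95 CPM in HET, and 3.45 to 5.36 CPM in KO with a median of 4.19 CPM. WT 1 and WT 2 were the highest and the lowest of all 10 libraries for this gene, and the log2 fold change of -0.06 ± 0.427 turned positive (0.33) without WT 2. Usp18 was at 12 and 12.7 CPM in WT, 7.51 and 8.09 CPM in HET, and 4.29 to 17.1 CPM in KO with a median of 7.61 CPM. Its log2 fold change was 0.35 ± 0.543 for WT over KO, and KO 4 (16.4 CPM) and KO 6 (17.1 CPM) lay above both WT libraries. The ubiquitin ligases Trim25 and Trim30a, which act on RNA sensing and inflammatory signaling, and Rnf213 showed fitted log2 differences of 0.18, 0.07 and 0.18 between WT and KO. Trim25 was at 69.7 and 66.9 CPM in WT, 61.7 and 77.7 CPM in HET, and 50.1 to 67.7 CPM in KO with a median of 60.0 CPM, and its difference turned to -0.07 with counts scaled by transcript length.

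Parp9, Dtx3l and Parp14 lie in 1 cluster on chromosome 16. PARP9 and DTX3L form a complex that ADP-ribosylates ubiquitin, and PARP14 is a mono-ADP-ribosyltransferase. Dtx3l was at 52.8 and 56.1 CPM in WT, 65.4 and 49.1 CPM in HET, and 26.9 to 53.9 CPM in KO with a median of 44.1 CPM. Parp9 was at 91.5 and 67.7 CPM in WT, 81.6 and 86.5 CPM in HET, and 50.4 to 79.5 CPM in KO with a median of 67.4 CPM. Parp14 was at 30.6 and 47.4 CPM in WT, 31.9 and 61.2 CPM in HET, and 18.4 to 42.1 CPM in KO with a median of 32.8 CPM. For controls over KO the log2 fold changes were 0.38 ± 0.184 for Dtx3l, 0.28 ± 0.144 for Parp9 and 0.47 ± 0.258 for Parp14, none of which passed (edgeR unadjusted p = 0.0609, 0.0702 and 0.0941). Parp9 and Dtx3l overlap by 682 bases on opposite strands, and the library kit does not mark strand, so reads from the overlap cannot be assigned to either gene by strand.

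Among the other effectors, Rsad2 (viperin, which makes a chain-terminating nucleotide) was at 4.88 and 2.01 CPM in WT, 0 and 0.469 CPM in HET, and 0 to 3.95 CPM in KO with a median of 0.767 CPM. KO 4 was the KO library within the WT range. The log2 fold change of WT over KO was 1.68 ± 1.29 (edgeR unadjusted p = 0.22), and it was 0.91 without WT 1 and 2.78 without KO 4 (edgeR unadjusted p = 0.0429). Its neighbor on chromosome 12, Cmpk2, a nucleotide kinase, ranged from 7.93 CPM in KO 1 to 33.5 CPM in KO 6. Isg20 was at 30.4 and 31.4 CPM in WT, 24.8 CPM in both HET libraries, and 22.5 to 34.0 CPM in KO with a median of 32.4 CPM. Eif2ak2 (PKR, which halts translation on sensing double-stranded RNA), Zbp1, a sensor of left-handed nucleic acids, and Samd9l, a brake on translation, had fitted log2 differences of -0.12, 0.07 and 0.14 between WT and KO. Ifi35, an interferon-induced leucine zipper protein, was at 69.7 and 77.1 CPM in WT, 71.3 and 59.1 CPM in HET, and 63.6 to 98.9 CPM in KO with a median of 72.0 CPM. Xaf1, a proapoptotic factor, was at 12.8 and 15.0 CPM in WT, 6.05 and 12.6 CPM in HET, and 9.03 to 27.7 CPM in KO with a median of 13.6 CPM. Ifi44 stayed at or below 2.20 CPM, its value in HET 2.

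Among the membrane proteins, Ifitm3, which blocks viral fusion, was at 23.5 and 15.4 CPM in WT, 5.19 and 4.19 CPM in HET, and 1.22 to 22.3 CPM in KO with a median of 10.1 CPM. Rtp4, a receptor chaperone, was at 8.79 and 6.96 CPM in WT, 2.96 and 4.62 CPM in HET, and 1.85 to 23.3 CPM in KO with a median of 5.48 CPM. For both genes HET lay below WT. KO 4 and KO 6 lay within the WT range for Ifitm3 and above it for Rtp4, and the other KO libraries lay below WT except KO 3 for Rtp4, at 7.34 CPM. Bst2 (tetherin, which holds budding virions at the cell surface) ranged from 11.4 CPM in HET 2 to 23.7 CPM in KO 4. Ly6e was at 1700 and 1640 CPM in WT, 1420 and 1480 CPM in HET, and 1480 to 2370 CPM in KO with a median of 1720 CPM, and its log2 fold change for controls over KO was -0.26 ± 0.145 (edgeR unadjusted p = 0.103).

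**Figure D1:**
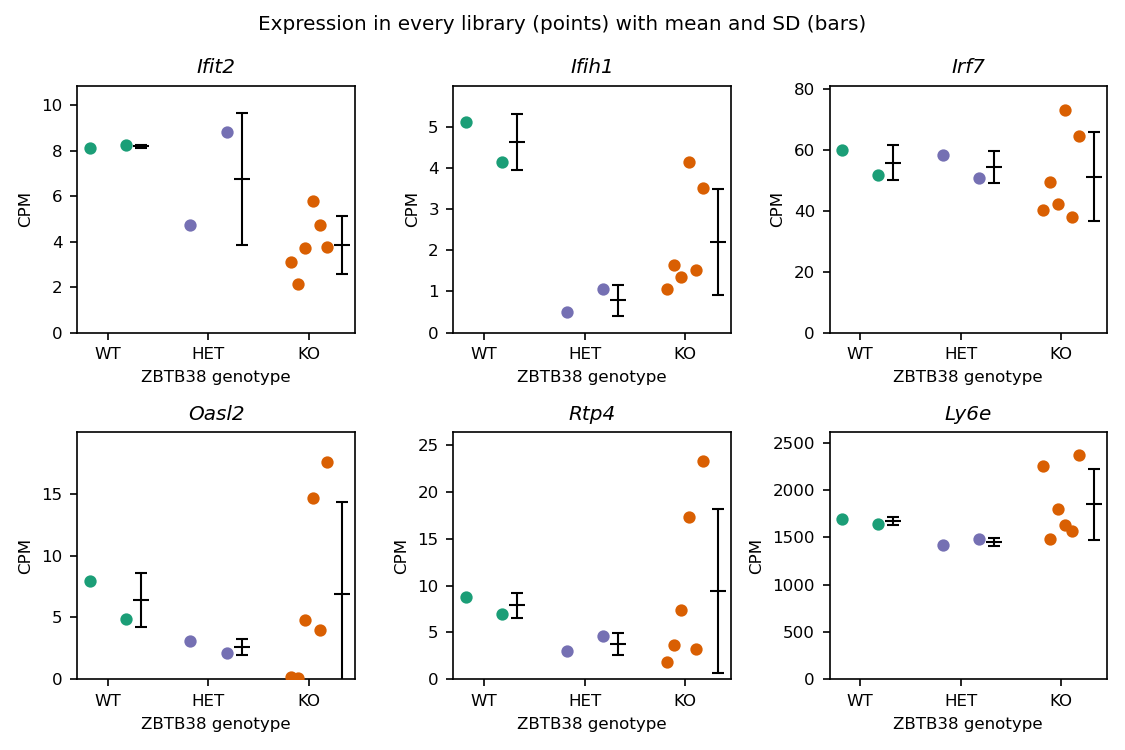
CPM (y axis) of 6 genes in every library (points) by ZBTB38 genotype (x axis), with the mean and SD of each group in black (lower bars end at 0). Ifit2 in WT lies above all KO libraries at 8.13 and 8.24 CPM, Ifih1 is lowest in HET, and Oasl2 and Rtp4 in KO run from 0.0718 to 17.6 CPM and from 1.85 to 23.3 CPM.

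Adar encodes an RNA-editing enzyme with a longer form that interferon induces and a shorter form made constitutively, and the transcripts differ in their coding sequence. The whole gene was at 134 and 108 CPM in WT, 161 and 126 CPM in HET, and 67.2 to 153 CPM in KO with a median of 106 CPM. Transcripts with a coding sequence of over 3000 bases held 78% and 79.7% of the TPM of Adar in WT, 78.2% and 87.6% in HET, and 57.4% (KO 1) to 82.8% (KO 5) in KO. The mean share was 78.9% ± 1.20 (SD, n = 2) in WT and 74.1% ± 9.28 (SD, n = 6) in KO, a difference of 4.77 percentage points (two-sided exact permutation test, p = 0.571, smallest possible p = 0.0357). For controls against KO the difference was 6.79 points (two-sided exact permutation test, p = 0.214, smallest possible p = 0.00476). Neither was larger than the spread between libraries, and KO 1 and KO 6 (69.5%) were the lowest.

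**Figure D2:**
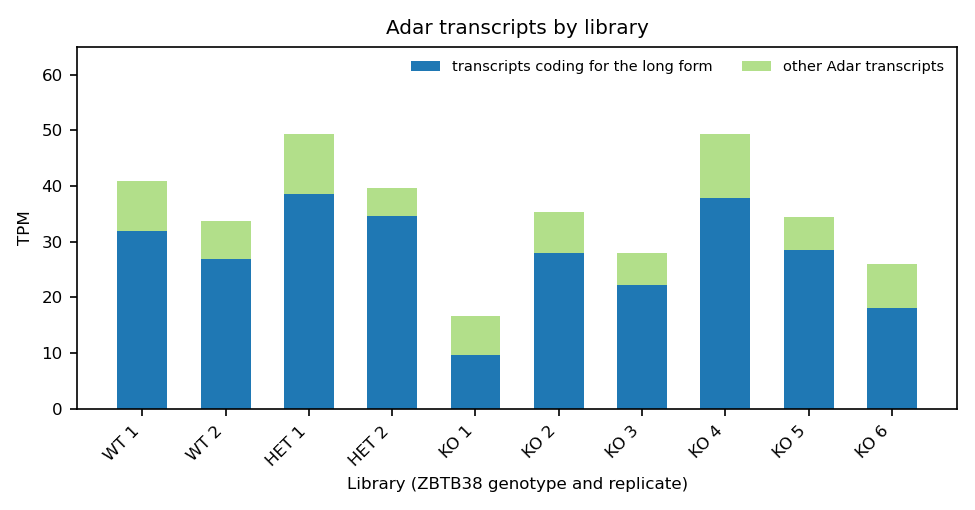
TPM of Adar (y axis) in each library (x axis), divided into transcripts coding for the long form (blue) and the others (green). KO 1 has the lowest long-form level at 9.59 TPM, and HET 1 and KO 4 the highest at 38.6 and 37.8 TPM.

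The 39 genes varied widely among the KO mice. The mean of log2(CPM + 1) over the 39 genes was 4.51 ± 0.108 in WT (SD, n = 2), 4.08 ± 0.106 in HET (SD, n = 2) and 4.18 ± 0.397 in KO (SD, n = 6). KO 4 was the highest library at 4.79, WT 1 followed at 4.59, KO 6 at 4.55 and WT 2 at 4.44. The other 4 KO libraries lay between 3.82 and 4.08 and the HET libraries at 4.00 and 4.15. Thus KO 4 was above both WT libraries, KO 6 lay between them, and the other 4 KO mice were below HET 2.

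In KO 4, 37 of the 39 genes were above their own mean over the 10 libraries, where 54.1% of all genes tested were. In WT 1 and WT 2 they were 32 and 30 genes (53.1% and 51.8% of all genes), in KO 6 28 genes (45.8%), and in KO 2 and KO 3 only 7 and 8 genes (49.2% and 47.9%). KO 4 ranked among the top 3 libraries for 30 of the 39 genes (30.9% of all genes). KO 6 was the highest library for 13 genes and KO 4 for 10, where they were highest for 19.3% and 7.25% of all genes, and KO 1 and KO 3 were lowest for 11 and 9 genes (15.9% and 5.2% of all genes). On the TPM scale KO 4 was highest for 18 of the 39, where it was highest for 12.5% of all genes. With KO 1 and KO 6 left out, KO 4 was highest for 20 genes on the CPM scale (11.6% of all genes). By role, KO 4 had the highest mean for the IFIT family, the OAS family, the RNA sensors, the transcription factors, the ubiquitin-like modifiers and the RNA or nucleotide effectors, KO 6 for the Mx GTPases and the membrane proteins, and HET 2 for the remaining 5 genes.

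**Figure D3:**
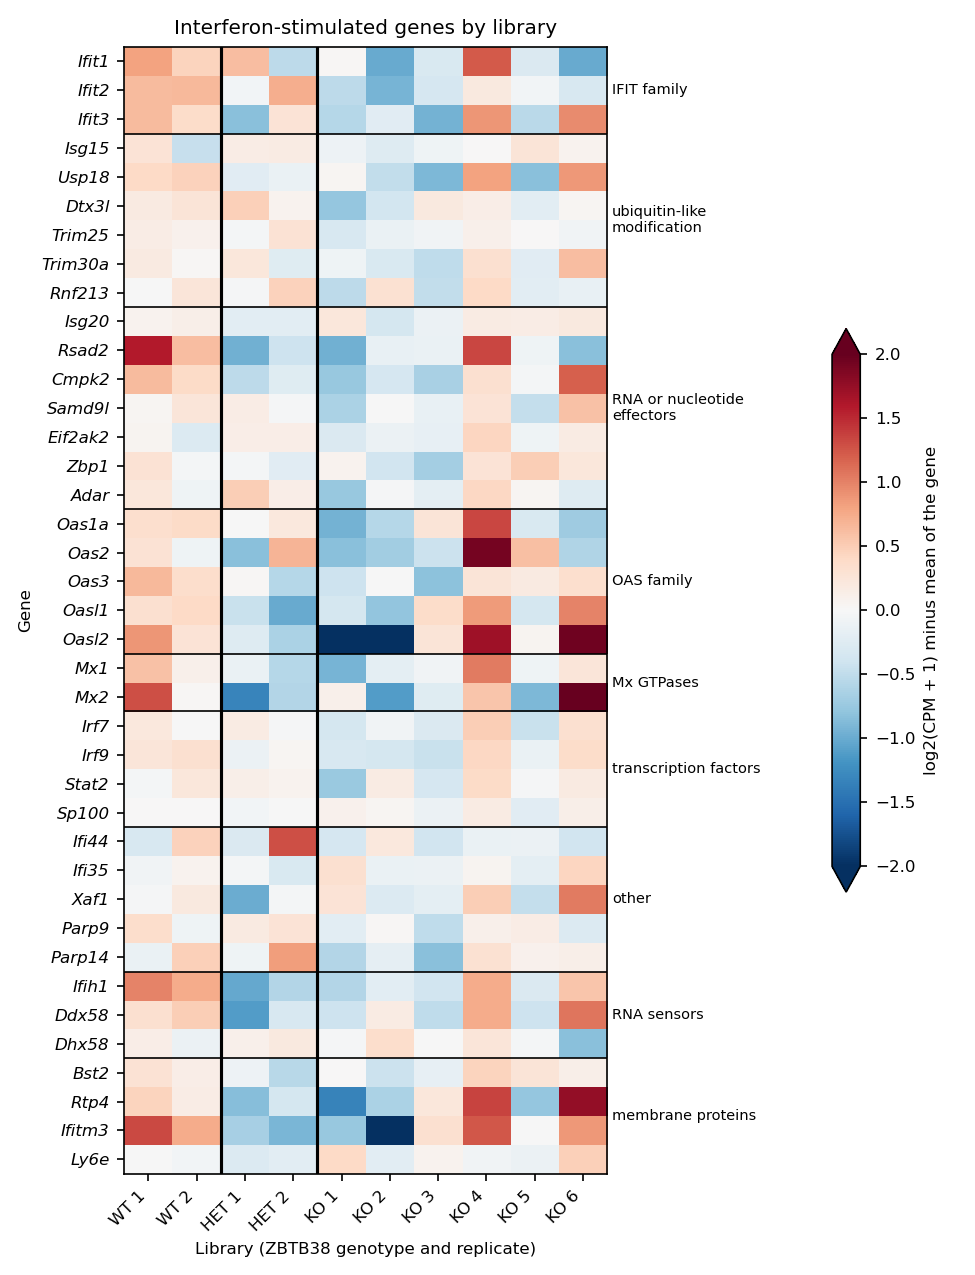
Each row is 1 of the 39 genes, grouped by role, and each column a library (x axis). Color gives log2(CPM + 1) minus the mean of the gene over the 10 libraries (colors end at -2 and 2). KO 4, KO 6, WT 1 and WT 2 are mostly red and KO 1, KO 2 and KO 3 mostly blue, so that the KO columns differ among themselves.

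For the 38 genes with a mean of at least 1 CPM, which leaves out Ifi44, the median spread among the KO mice was above that of all genes of like expression in each of 4 ranges of CPM. Of the 12 genes with a mean between 5 and 20 CPM, 10 had an SD of log2(CPM + 1) over the KO libraries above the median of all genes in that range, and the median SD was 0.758 against 0.442. Of the 16 genes between 20 and 100 CPM, 11 were above the median (0.387 against 0.279). The largest SD values were those of Oasl2 (1.77), Rtp4 (1.24), Ifitm3 (1.23), Mx2 (1.19) and Oas2 (1.07), and the smallest those of Trim25 (0.144) and Sp100 (0.152).

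The summed markers of some other cell types, but not all, were highest in the same libraries as the module. The summed level of 14 myeloid markers was 508 to 654 CPM in WT, 97.5 to 110 CPM in HET and 92.2 to 854 CPM in KO, and the 4 libraries with the highest sums, KO 4, WT 1, WT 2 and KO 6, were the same 4 that had the highest mean of the 39 genes. KO 6, at 350 CPM, was close to KO 5 and KO 3 (322 and 317 CPM), which were low for the 39 genes. Lyz2, a lysozyme of myeloid cells, was at 528 CPM in KO 4, 349 and 298 CPM in WT, and 34.2 CPM in KO 6. Without Lyz2 the same 4 libraries were highest, but WT 2 (210 CPM) was close to KO 3 (204 CPM). Lyz1, S100a8 and S100a9 had no count in 4 libraries each and Fcgr1 in 2, and 0 of the 14 markers were higher in all 4 of those libraries than in the other 6. The 9 naive B cell markers summed to 1780 to 1820 CPM in WT, 1360 to 1390 CPM in HET and 1200 to 2280 CPM in KO. The same 4 libraries were highest, and 4 of the 9 markers were higher in all 4 than in each of the others. For 15 T cell markers, 3 of the 4 libraries were shared (332 to 335 CPM in WT, 198 to 206 in HET, 199 to 294 in KO), and 4 of the 15 markers were higher in all 4. Lck alone was at 126 to 219 CPM, and without it all 4 libraries were shared, at 170 and 167 CPM in WT, 131 CPM in KO 6 and 108 CPM in KO 4, where the others were at 26.6 to 96.9 CPM. For 13 germinal center B cell markers, 1 of the 4 libraries was shared. For 7 plasma cell and 8 plasmacytoid dendritic cell markers it was also 1, for 6 erythroid markers 2, and for 8 NK cell markers 3. Of the 8 plasmacytoid dendritic cell markers, 0 were higher in all 4 libraries. Siglech, a defining gene, stayed between 0.181 and 0.935 CPM, and Ccr9 ran from 0.507 to 7.59 CPM (KO 6). Tcf4 was at 149 to 258 CPM, highest in KO 6, and Flt3 at 46.0 to 90.6 CPM, lowest in KO 6. The part of these cells in the levels of the 39 genes was not tested.

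**Figure D4:**
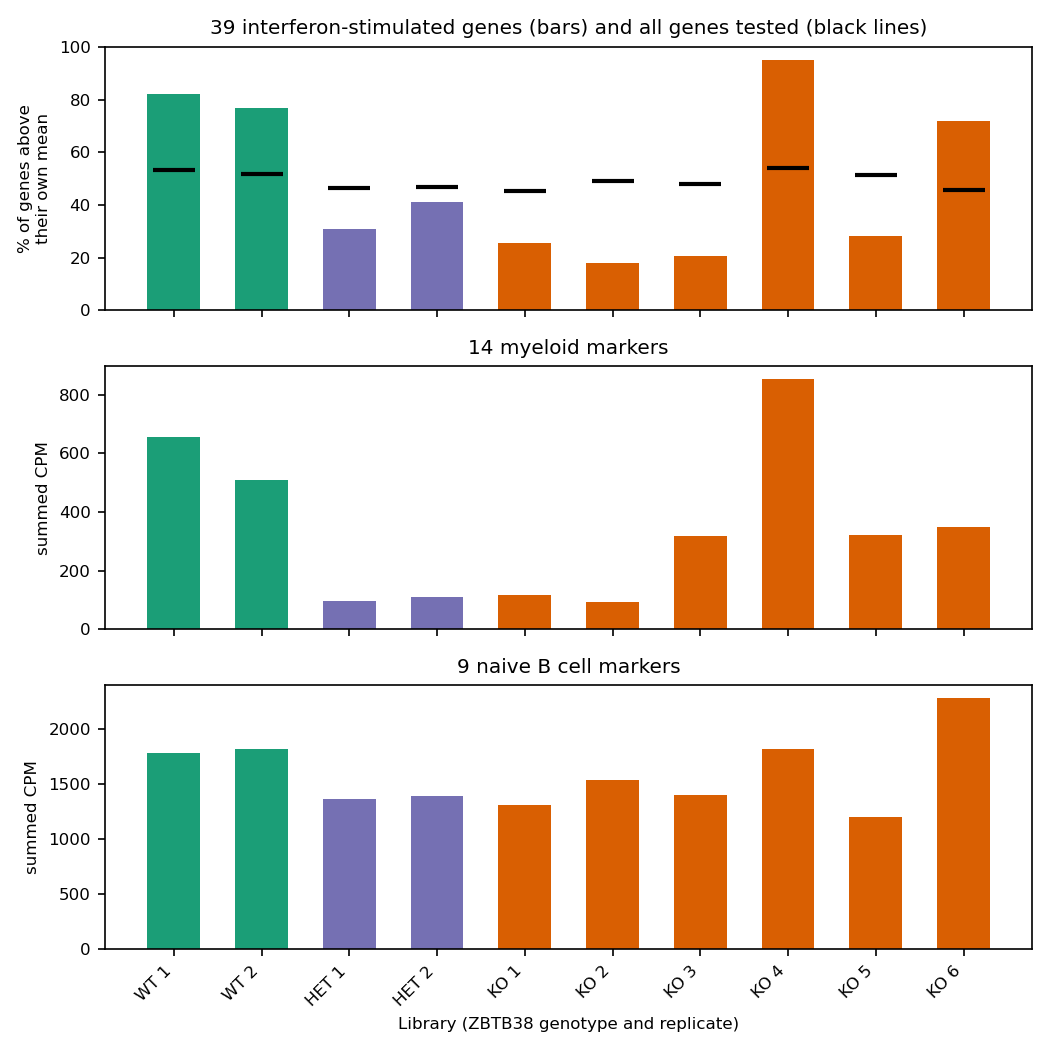
Top, the percentage of the 39 genes above their own mean in each library (bars) beside that of all genes tested (black lines). Middle and bottom, the summed CPM of 14 myeloid and 9 naive B cell markers, which are highest in the same 4 libraries (WT 1, WT 2, KO 4 and KO 6) as the mean of the 39 genes.

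HET and KO mice both carried Vav-Cre and differed in the number of deleted alleles. In HET against KO 0 of the 39 genes passed an adjusted p of 0.1 by edgeR (0.00697% of all 14354 genes did), DESeq2 or limma, and 0 had an unadjusted p under 0.05 by edgeR, where 10.2% of all genes did (5.46% higher in HET and 4.76% lower). DESeq2 gave 4 at that level (Ddx58, Ifih1, Mx2 and Oasl1, beside 13.1% of all genes) and limma on log2(TPM + 1) gave 0 (7.67% of all genes). The median log2 fold change was -0.18 (all genes -0.07), or 0.03 with limma on log2(TPM + 1) (all genes 0.04), and 16 of 39 genes were higher in HET (43.7% of all genes). In CPM, Parp9 had every HET library above every KO library (8.1% of all genes did) and Ifih1 every HET library below (5.82% of all genes). In TPM, Parp9 in HET 1 (40.4 TPM) was below KO 4 (42.6 TPM). For Ifih1 the log2 fold change of HET over KO was -1.50 ± 0.71 (edgeR unadjusted p = 0.0576). With KO 1 and KO 6 left out, Ifih1 alone was under 0.05, and leaving out single libraries gave 0 to 4.

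The control groups also differed from each other in part. In WT against HET 0 genes passed an adjusted p of 0.1 by edgeR (0.00697% of all genes did), DESeq2 or limma, and 2 genes, Ifih1 and Ifitm3, had an unadjusted p under 0.05 (6.42% of all genes). Both were higher in WT (3.98% of all genes were), and 0 were lower (2.44% of all genes). DESeq2 gave 4 at that level (8.19% of all genes) and limma on log2(TPM + 1) gave 3 (6.07% of all genes). The median log2 fold change was 0.26 (all genes 0.01), and 27 of 39 genes were higher in WT (51.1% of all genes). Those named between HET and the other groups were chosen after their values were seen. Ifih1 was higher in WT by 2.56 ± 0.833 on the log2 scale (edgeR unadjusted p = 0.0101, adjusted p = 0.709), and without HET 1 the unadjusted p was 0.0719. Ifitm3 was higher in WT by 2.04 ± 0.927 (edgeR unadjusted p = 0.049, adjusted p = 0.775), and leaving out any of the 4 libraries took the unadjusted p to between 0.0599 and 0.158. Every WT library was above every HET library for 20 of the 39 genes (25.4% of all genes) and below for 1, Eif2ak2 (22.1% of all genes). In a fit of only these 4 libraries, Ifitm3 passed (2.05 ± 0.335, edgeR adjusted p = 0.044), as did 523 genes in all. The summed myeloid, T cell, naive B cell, NK cell, plasma cell and erythroid markers were each higher in both WT libraries than in both HET libraries. Those of germinal center B cells and plasmacytoid dendritic cells overlapped between WT and HET. The part of any of these cells in the differences was not tested.

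The ligands were near the limit of detection. Of 21 interferon genes, 16, Ifnb1 among them, had no count in any library, which allows up to 3 counts in each. Ifng, which signals through another receptor, was the highest at 50 counts in WT 2 (1.73 CPM), and of the type I genes Ifna2 reached 16 counts in KO 6 and Ifnk 7 counts in KO 1.

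The receptor chain Ifnar1 was at 57.0 and 66.8 CPM in WT, 49.1 and 43.4 CPM in HET, and 16.5 to 55.8 CPM in KO. Of 11 receptors and kinases, 0 passed an adjusted p in WT against KO or in controls against KO (edgeR). In the latter 2, Jak1 and Jak2, had an unadjusted p under 0.05, beside 6.3% of all genes. Jak2 was at 111 and 103 CPM in WT, 161 and 162 CPM in HET, and 69.1 to 117 CPM in KO, so that HET alone lay above KO. Tyk2 and Ifnar2 had log2 fold changes of 0.36 ± 0.241 and 0.34 ± 0.283 for WT over KO.

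Genes of related groups were tested in the same fits. In WT against KO, 0 passed an adjusted p among 9 other interferon regulatory factors, 11 feedback inhibitors, 17 nucleic acid sensing genes, 50 other interferon-inducible genes and 31 genes that lean to interferon gamma (edgeR). Under an unadjusted p of 0.05 there was 1 in the sensing list and 1 in the inducible list, beside 2.19% of all genes. That gene was Tlr7, a receptor for single-stranded RNA, which is on both. It was at 14.3 and 16.3 CPM in WT, 2.90 and 3.76 CPM in HET, and 6.26 to 11.7 CPM in KO (log2 fold change of WT over KO 0.83 ± 0.308). In CPM, Tlr7 was thus highest in WT and lowest in HET, without overlap between any of the genotypes. In TPM, KO overlapped with both other groups, at 5.51 and 6.41 TPM in WT, 2.53 and 1.46 TPM in HET, and 1.87 to 10.8 TPM in KO. In controls against KO, where 6.3% of all genes were under 0.05, those of the lists included Ptpn11, Myd88, Herc6, Trafd1, Irgm2 and Psme2. Beside them were the kinases, with edgeR adjusted p = 0.744 for each. Median log2 fold changes of WT over KO were between -0.12 and 0.09 for these 5 lists.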

How the data were processed

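RNA-seq libraries of 10 mice were grouped by the genotype in the labels. The authors prepared SMART-Seq v4 and Nextera libraries, sequenced them as paired ends, and quantified transcripts against Gencode vM17 with Salmon 0.9.1, and the submitters' processing notes also name DESeq2 2.11.40.6. They deposited raw estimated counts for each transcript (46.74% of values are not whole) and TPM values, which Salmon derives from those counts and the effective lengths. Effective lengths, also deposited, served only to scale counts in 1 alternative.

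Estimated counts were summed per gene by the symbol in the transcript names and rounded. Tests used edgeR 4.0.16 (quasi-likelihood, TMM, filterByExpr, Benjamini-Hochberg over all genes tested, threshold 0.1). WT against KO and WT plus HET against KO were fitted on their own libraries, and the other comparisons on all 10. DESeq2 1.42.0 and limma 3.58.1 were alternatives, in R 4.3.3 and Python 3.11.15. Limma used log2(TPM + 1) and log2(TPM + 0.1), without TMM normalization. A pseudocount of 1 pulls the fold changes of low genes toward 0. On simulated data, edgeR at the threshold recovered 56% of 2-fold and 100% of 4-fold changes in the design of WT against KO (13865 genes), and 84% and 100% in that of WT plus HET against KO (13487 genes). It recovered 52% of 2-fold and 100% of 4-fold changes for HET against KO (13964 genes), and 22% and 99% for WT against HET (13965 genes). These figures hold for the simulated levels and spread only, and recovery of the module's own genes was not tested. In the real fit of WT against KO, the median standard error was 0.414 for the module and 0.315 for all genes. There Ifit2, at a 2.1-fold difference, had an edgeR adjusted p of 0.999, and Zbtb38, at 4.95-fold, had 0.0734. The p-values measure the spread between the mice in each fit. In the fits on all 10 libraries this includes mice of the genotype that was not compared. Depth limits low genes most, floors of 3 counts cover counting error only, and PCR duplicates were not told apart.

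The 39 genes, the pathway and marker lists and the tests were chosen with earlier results of these data known. Values in every library (for KO the lowest, the median and the highest) were given for the 8 smallest p-values in each comparison with KO that includes WT, the 5 highest mean TPM, the 5 largest SDs among KO libraries, and Irf7, Stat2, Irf9, Usp18 and Isg15. Of list genes outside the 39, those with an unadjusted p under 0.05 in those comparisons or that are Ifnar1, Ifnar2, Jak1 or Tyk2 were named, and some that the rule takes are not reported here.

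Gene positions are from Gencode vM21 (GRCm38), which found all 39 genes, and promoters from RefSeq (GRCm38.p6). Sharing between genes was the percentage of 31-base words of a gene's vM21 transcripts found in transcripts of another gene. Alternatives were other normalizations, filters, pseudocounts, length scaling, immunoglobulin genes left out, a replicate block and each library left out. Leaving out KO 1 and KO 6 together, and marker sums without Lck or Lyz2, were added after seeing the data.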

Additional observations from a re-analysis of the deposited data

Results flagged for a closer look

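In 78 checks (39 genes in 2 groups, the 6 KO libraries and the 4 WT and HET libraries), 4 genes had 1 library far from the others of its group relative to the group's range. Chance flags about 1 in 20 groups, which would be 3.9. Dhx58 was at 21.7 CPM in KO 6, where the other KO libraries were between 38.4 and 50.9 CPM. Ifit2 was at 4.71 CPM in HET 1, against 8.13 to 8.81 CPM in the other WT and HET libraries. Isg15 was at 2.87 CPM in WT 2, against 4.93 to 5.46 CPM, and Eif2ak2 at 20.8 CPM in WT 2, against 26.4 to 27.8 CPM.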

How the results depend on the processing

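No gene of the 39 passed an adjusted p of 0.1 in any comparison with DESeq2, DESeq2 size factors, limma, other filters, length scaling, immunoglobulin genes left out, KO 1 and KO 6 left out, or any library left out (range 0 to 0). The 2 exceptions were 1 gene with the replicate block in WT against KO (6 of all genes passed there) and 1 in the fit of only WT and HET, whose total is given above. At an unadjusted p under 0.05, WT against KO gave 2 genes with limma on log2(TPM + 1) (3.08% of all genes), 2 without KO 1 and KO 6 (3.53%), and 0 to 2 with single libraries left out (1.27% to 3.89%). WT plus HET against KO gave 1 to 4 genes with single libraries left out (3.28% to 9.13%), the 4 without KO 4. HET against KO gave 4 with DESeq2 (13.1%), 1 with at least 10 counts in every library (11.6%), 1 with length scaling (9.58%), 1 with limma on log2(TPM + 0.1) (7.91%), 1 without KO 1 and KO 6 (12.5%), and 0 to 4 with single libraries left out (4.34% to 11.5%), the 4 without KO 2. WT against HET gave 4 with DESeq2 (8.19%), 1 with length scaling (6.07%), 10 in the fit of only the 2 groups (16.9%), and 0 to 4 with single libraries left out (2.7% to 4.8%), 0 without HET 1 and 4 without HET 2. With TPM in place of TMM-normalized counts, the median log2 fold change of all genes in WT against KO was 0.11 with a pseudocount of 1 and 0.16 with 0.1, in place of -0.01, and that of the 39 genes was 0.35 and 0.41, in place of 0.16. On the TPM scale, 18 in place of 10 genes were highest in KO 4 (12.5% and 7.25% of all genes). The causes were not tested.

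Some replicate numbers are shared between groups, and the labels do not say whether they mark littermates or a batch. Correlations of same-numbered libraries were between -0.01 and 0.13. With only 2 numbers, these correlations can neither show nor exclude pairing, and the main fits did not pair the mice. A replicate block rests on the libraries numbered 1 and 2 where KO is compared. It gave 13 genes at an unadjusted p under 0.05 in WT against KO (7.67% of all genes), 7 in WT plus HET against KO (8.27%), 7 in HET against KO (9.73%) and 8 in WT against HET (8.46%). Of the 39, 1 gene, Oasl2, passed in WT against KO (5.64 ± 0.680, edgeR adjusted p = 0.067), where 6 of all genes did. The median log2 fold change was 0.56 in WT against KO and 0.27 in HET against KO. The call for Zbtb38 was lost in both comparisons of the study.

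The direction of a named gene turned in these cases. Trim25 turned to -0.07 with length scaling in both comparisons of the study. In WT against KO, Isg15 turned to 0.02 with either limma setting, 0.09 with the replicate block, 0.33 without WT 2 and 0.01 without KO 5, and Stat2 to -0.04 without WT 2. With single libraries left out, Isg15 ranged from -0.58 to 0.33 and Stat2 from -0.04 to 0.24. In WT plus HET against KO, Usp18 turned to values between -0.09 and -0.03 (-0.03 without WT 1, -0.07 without WT 2, -0.04 without KO 2, -0.09 without KO 3 and -0.08 without KO 5), and Isg15 to -0.02 without WT 1. They ranged up to 0.31 and 0.24. In WT against HET, Ifit2 turned to -0.12 without HET 1, and its range was -0.12 to 0.79.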
